A study of Drosophila melanogaster with 2 samples.

Results

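The 728 peaks described here are CG1792 peaks at the outermost starts of genes that face one way, and they make up 25.2% of the 2892 thresholded peaks of the series. A peak was taken when its summit lay within 500 bp of protein-coding transcript starts that were all on one strand, and when at least 1 of these starts lay within 500 bp of the 5'-most annotated start of its gene. Strength, sequence, gene function and the side of the start on which a summit lay played no part in that choice. The other thresholded peaks comprised 557 at divergent starts (protein-coding starts on both strands in the window), 249 at internal alternative starts and 1358 with no protein-coding start in the window.

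CG1792 was mapped by chromatin immunoprecipitation with sequencing (ChIP-seq) in whole Drosophila melanogaster embryos of both sexes at ages of 0 to 24 hours. All embryos came from a transgenic line that stably expressed CG1792 with GFP at its C-terminus. The precipitation used an antibody against GFP, per the labels, although a separate label for the antibody names CG1792. There was 1 group with 2 biological replicates, numbered 2 and 3, and no control library is analysed here. The lists give a signal per peak on a scale that is not stated and no read counts, so the depth of the libraries is unknown. Whole embryos hold every embryonic cell type, and binding in few cells cannot be told apart from weak binding in many.

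A gene start is where RNA polymerase II begins transcription, and short core promoter elements around it are read by general or gene-specific factors. In Drosophila, many housekeeping genes start at promoters with the DNA replication-related element (DRE), read by Dref, or with further core promoter elements known as Ohler 1, 6 and 7, whereas developmental genes more often carry TATA boxes and initiators. CG1792 belongs to the ZAD family of C2H2 zinc finger proteins, which pair through the N-terminal zinc-finger associated domain and bind DNA through their fingers.

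The first windows shown are those of the strongest peaks, as the places where the signal was highest. Each reaches 50 bp to either side of the summit and is read 5' to 3' on the strand of the gene, with dm6 coordinates and bases from the RefSeq Release 6 genome. Capitals mark TATCG, the reverse complement of the CGATA core of BEAF-32 sites, in the window of CG14100. The windows lie at chrX:2703835-2703935, minus strand (Ugalt), at chr3L:19590574-19590674, minus strand (CG14100) and at chr2L:13904504-13904604, minus strand (Smg5).
Ugalt: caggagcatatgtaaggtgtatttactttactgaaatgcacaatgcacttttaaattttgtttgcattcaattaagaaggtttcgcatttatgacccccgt
CG14100: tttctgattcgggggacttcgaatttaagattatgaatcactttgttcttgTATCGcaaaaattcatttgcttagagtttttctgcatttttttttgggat
Smg5: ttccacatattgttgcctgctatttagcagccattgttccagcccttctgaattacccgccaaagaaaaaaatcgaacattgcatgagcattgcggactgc

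The next windows belong to the strongest members that hold each of 4 further elements found more often at summits than in their upstream flanks. Capitals mark the DRE at eEF1gamma (chr3R:29220087-29220187, plus strand), Ohler 1 at Wdr62 (chr2L:1884562-1884662, plus strand), the reverse complement of Ohler 7 at Pi3K21B (chr2L:297828-297928, plus strand) and the E-box CAGCTG at Gnpat (chr3R:25490857-25490957, minus strand).
eEF1gamma: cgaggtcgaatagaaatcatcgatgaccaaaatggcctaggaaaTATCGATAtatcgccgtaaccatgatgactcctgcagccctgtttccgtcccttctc
Wdr62: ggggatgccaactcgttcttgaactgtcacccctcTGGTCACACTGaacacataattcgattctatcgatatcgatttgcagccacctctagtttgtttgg
Pi3K21B: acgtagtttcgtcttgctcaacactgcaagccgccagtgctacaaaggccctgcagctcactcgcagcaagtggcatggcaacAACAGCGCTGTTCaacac
Gnpat: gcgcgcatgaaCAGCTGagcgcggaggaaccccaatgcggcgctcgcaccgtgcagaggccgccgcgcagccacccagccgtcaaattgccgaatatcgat

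The 7-base word that stood out most under member summits was ACTATCG. The sites below are among the 10 at the strongest members and were chosen after their values were seen, to show the word with its flanks. They are given on the strand that reads ACTATCG, and capitals mark the word. They lie at chr3L:12125180-12125198, plus strand (yps), at chrX:17148350-17148368, plus strand (RpS5a) and at chrX:15139414-15139432, minus strand (RpL37-1).
yps: gatcggACTATCGatgggt
RpS5a: aagtgaACTATCGaacgga
RpL37-1: acaaaaACTATCGatactc

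Member summits lay mostly just upstream of the start. Of the 728 summits, 568 (78%, Wilson 95% interval 74.9 to 80.9) were upstream of the nearest protein-coding start, 158 were downstream and 2 were at the start itself. Background regions, the pooled regions of the same libraries that overlapped no thresholded peak, were upstream in 2008 of 4215 cases under the same position rule (47.6%, interval 46.1 to 49.1). The odds ratio was 3.90 (p = 1.52e-54, Fisher's exact test, two-sided). Intervals and p-values of this kind cover the counting of regions only, since peaks are not biological replicates.

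The median summit position was -89 bp in members (quartiles -191 and -9.75 bp), against 12 bp in background regions (quartiles -134 and 205 bp). The last 100 bp before the start held 228 member summits (31.3%), against 18.7% of background regions. A further 169 members lay between 100 and 200 bp upstream and 171 farther out, whereas 89 lay in the 100 bp downstream of the start. Members did not pass the test against peaks at internal starts, of which 80.7% were upstream (odds ratio 0.848; p = 0.420, Fisher's exact test, two-sided).

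**Figure D1:**
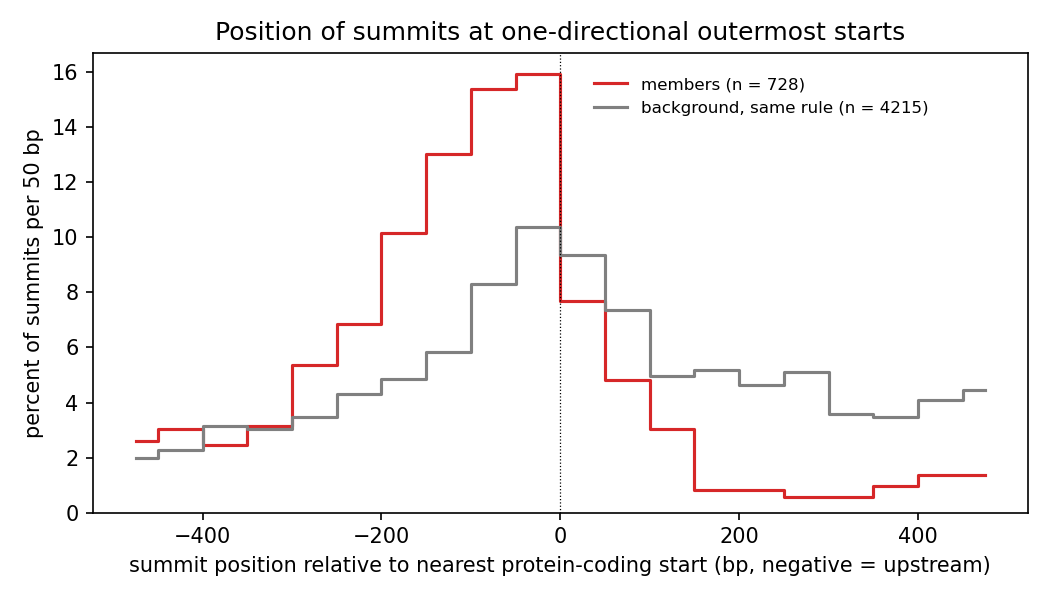
Share of summits per 50 bp (y axis, percent) by position relative to the nearest protein-coding start (x axis, bp, negative values upstream), for the 728 members (red) and the 4215 background regions that pass the same position rule (grey). Member summits are most frequent in the 50 bp before the start (15.9%, against 10.4% of background regions) and scarce beyond 150 bp downstream.

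Almost no member summit lay in coding sequence. Coding exons held 7 summits (0.962%), against 19.7% of the background regions under the same rule. The space between protein-coding genes held 462 member summits (63.5%, against 36.5% of background regions), untranslated exons 167 (22.9%, against 29.6%) and introns 92 (12.6%, against 14.2%). These shares are not independent of the side of the start and were not tested separately. A non-coding RNA started on the opposite strand within 500 bp of 35 members, so these starts were one-directional for protein-coding transcripts only.

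The choice of window put few peaks near its edge. Members with a summit 451 to 500 bp from a start numbered 28, with a median signal of 109.5, and 48 peaks of any class lay 501 to 550 bp away, with a median signal of 106.8. Starts lay 401 to 500 bp from the outermost start of the gene in 3 members (median signal 136.8) and 501 to 600 bp from it in 4 peaks at internal starts (median signal 86.1). The outermost start itself was in the window of 716 members.

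Member signal had a median of 99.7 (quartiles 78.2 and 141) and lay between 67.0 and 1429. The median was 103.2 at divergent starts, 113.7 at internal starts and 98.8 away from starts, with upper quartiles of 148, 182.7 and 140.9. Of the members, 357 (49%) were above the median of all thresholded peaks, against 51.5% of peaks at divergent starts (odds ratio 0.905, adjusted exact p = 0.598), 57.8% at internal starts (odds ratio 0.702, adjusted exact p = 0.0561) and 48.5% away from starts (odds ratio 1.02, adjusted exact p = 0.818). None of the 3 differences passed the test (Fisher's exact, two-sided, Benjamini-Hochberg over the 3 classes). The difference from divergent starts did pass with a window of 250 bp (odds ratio 0.704, adjusted p = 0.0205) and without replicate 3 (0.771, adjusted p = 0.0328, Fisher's exact). That from internal starts passed without replicate 2 (0.683, adjusted p = 0.0311), without replicate 3 (0.689, adjusted p = 0.0328) and among the stronger 1446 peaks (0.539, adjusted p = 0.00666, Fisher's exact).

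In single replicates, 715 members had a summit within 100 bp in replicate 3, 706 in replicate 2 and 693 in both. Over these 693 the Spearman correlation between replicates 3 and 2 was 0.644, against 0.676 over 2060 other peaks with partners in both, as a description of peaks that share libraries. Members among the 2892 strongest regions of both replicates numbered 485 (66.6%), against 68.0% at divergent starts, 64.3% at internal starts and 67.8% away from starts (adjusted p = 0.631 each, two-sided Fisher's exact). The thresholded list was itself selected by repeatability between these replicates, so such shares are partly built in.

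Among the 15 strongest members found at high rank in each replicate, the first was Ugalt, a gene for a UDP-galactose transporter. Its peak (chrX:2703677-2704093, summit at -33 bp) had a signal of 1429, with 723.7 in replicate 3 and 714 in replicate 2. CG14100 followed with a signal of 1214 (616.4 in replicate 3 and 600.9 in replicate 2) and its summit at -100 bp. Smg5, a gene of nonsense-mediated mRNA decay, had a signal of 1049 (468.8 in replicate 3 and 581.6 in replicate 2). The summit at Smg5 lay 78 bp upstream of its nearest start but inside an untranslated exon of a transcript that begins farther out. These were ranked 3, 4 and 7 among all thresholded peaks.

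The next peak stood above the 11 that followed it. mRpL41, which encodes a mitochondrial ribosomal protein, had a signal of 875.9 (449.9 in replicate 3 and 426.2 in replicate 2), and the 11 peaks after it ran from 672.3 down to 491. Genes of regulators among them were Sox14, an HMG-box transcription factor of the ecdysone response (592.8), and Atf3, a bZIP transcription factor (536.9). The summit at Sox14 lay at -257 bp and that at Atf3 at -244 bp, farther out than the median member.

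Enzyme and transporter genes were among the rest. GstE13, a glutathione S-transferase gene, had a signal of 583.2 and its summit 55 bp downstream of the start in an untranslated exon. The peak at amon, a proprotein convertase gene, had a signal of 528 (300.7 in replicate 3 and 226.2 in replicate 2) with its summit at -206 bp. Gnpat, whose product acts early in ether lipid synthesis, also had 528 (227.8 in replicate 3 and 305.7 in replicate 2), but its summit lay 29 bp downstream of the start. SLC5A11, a solute transporter gene, had a signal of 491 (278.9 in replicate 3 and 204.6 in replicate 2) with its summit at -154 bp.

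eIF6 encodes a factor that keeps the large ribosomal subunit from joining the small one. Its peak, with a signal of 560.1 (290.5 in replicate 3 and 264.4 in replicate 2), lay 93 bp upstream of the start and within an intron of the neighbouring gene ytr. The other named starts were those of CG31145 (672.3), CG10555 (627.9), CG18549 (593.9) and CG13921 (588.8), with summits between -201 and -126 bp. Neither replicate was the higher one at every gene.

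**Figure D2:**
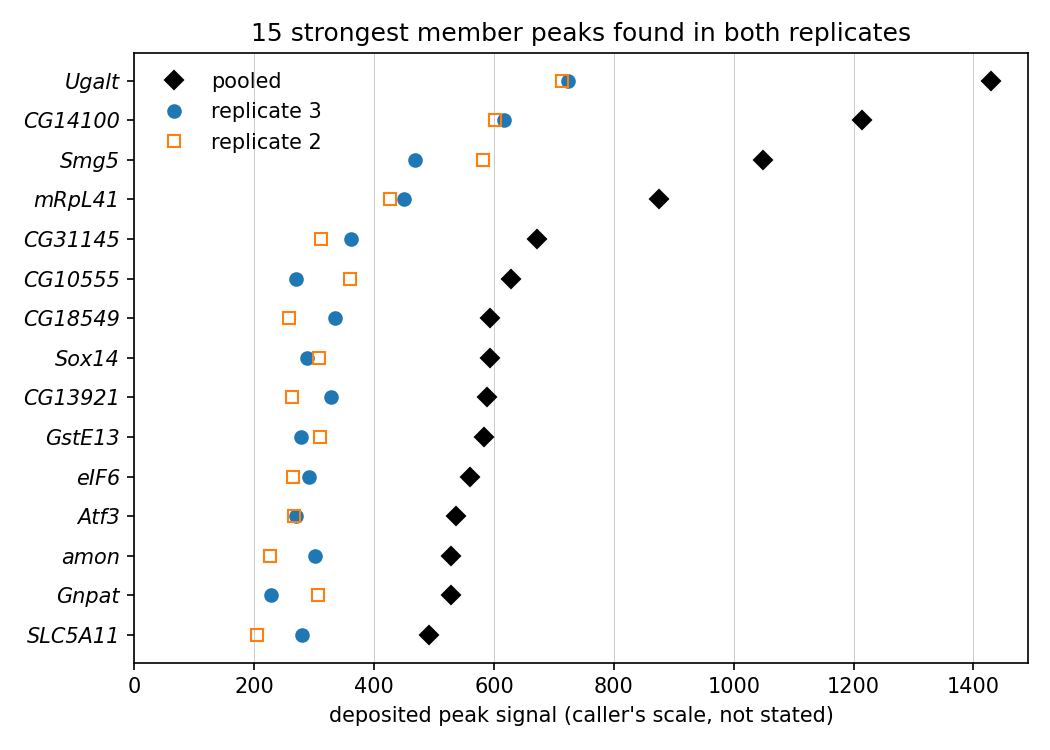
Deposited peak signal (x axis, on the unstated scale of the caller) at the 15 strongest members of high rank in each replicate, in the pooled list (black diamonds), replicate 3 (blue circles) and replicate 2 (orange squares). Ugalt leads in all 3 lists, and the replicates differ in which is higher from gene to gene.

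The strongest members lay farther upstream and were richer in A and T than the weakest. Divided by signal into 4 sets of 182, from strongest to weakest, the members had median positions of -138.5, -98.5, -74.5 and -46 bp. The share upstream was 87.4, 83.5, 73.6 and 67.6% in the same order, and the mean GC content of the window around the summit was 36.8, 39.4, 39.8 and 42.1%. Across the 728 members, signal had a Spearman correlation of -0.23 with position and -0.22 with GC content, and position had one of 0.40 with GC content. The points share the same libraries, and this comparison was made after the values were seen and has no test.

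The same order of the strongest and weakest sets was present in each replicate alone. Among members of the 2892 strongest regions of replicate 3, the strongest of 4 sets by signal had a median position of -147 bp and the weakest -73 bp. In replicate 2 these were -122 and -52 bp. Among the 485 members strong in both replicates, they were -139 and -75 bp. At divergent starts, where the next gene begins close by on the other strand, the medians of the 4 sets lay between -70 and -57 bp. At internal starts the strongest and weakest sets had medians of -206 and -90 bp, and background regions under the rule for members had -24.5 and 60 bp.

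**Figure D3:**
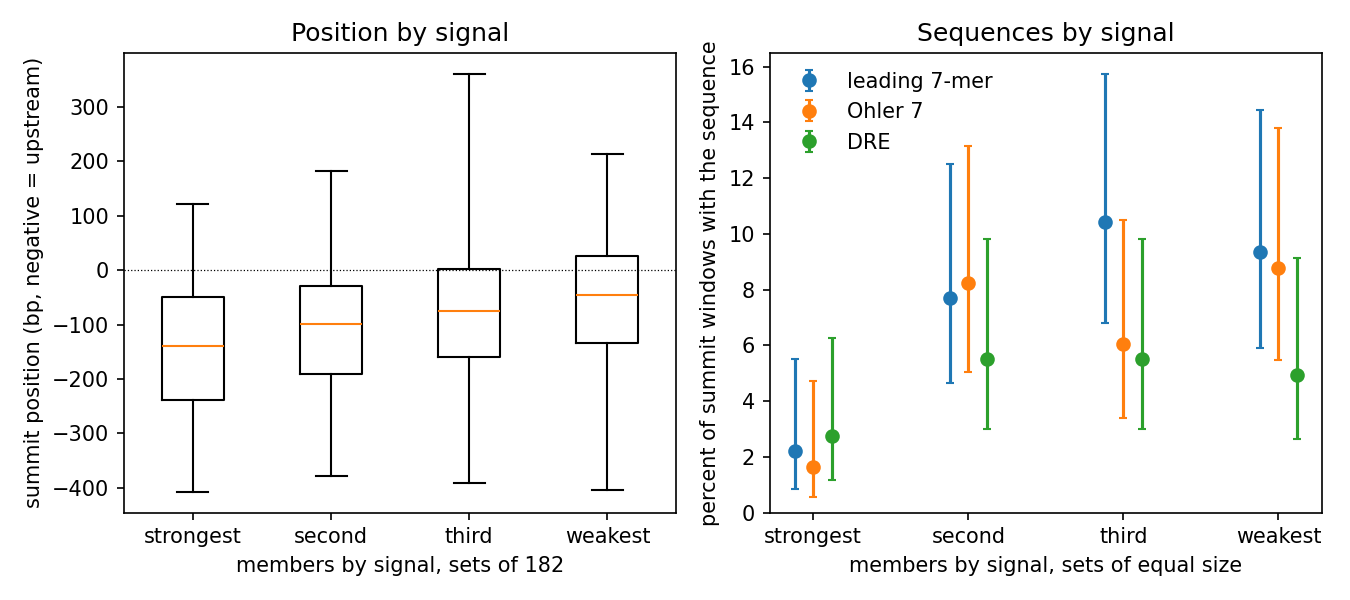
Left, summit position (y axis, bp, negative values upstream) in 4 sets of 182 members by signal, with boxes at the quartiles, lines at the medians and whiskers at the 5th and 95th percentiles. Right, percent of summit windows that hold the leading 7-base word, Ohler 7 or the DRE, with Wilson 95% intervals; by pooled signal the strongest set has the lowest share of each, which for the DRE is not so in either replicate alone.

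Sequences of housekeeping promoters were more frequent under member summits than in windows of the same length 300 bp upstream. Members were chosen near starts, so the upstream windows mostly lay farther from the start than the summits did. The part of position in these differences was not tested, and background regions under the same position rule are compared below. Both strands were searched for 12 consensus elements, and 5 of 12 (41.7%) were more frequent at the summit in an exact two-sided McNemar test with Benjamini-Hochberg adjustment over the 12. The DRE, TATCGATA, was in 34 summit windows (4.67%) and 8 upstream windows, 4.25-fold more (adjusted exact p = 0.000169). The CGATA core, which the DRE also contains, was in 190 (26.1%) and 110, 1.73-fold more (adjusted exact p = 1.42e-06). Ohler 7 was in 45 (6.18%) and 6, 7.5-fold more (adjusted exact p = 2.20e-07).

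The other calls were less firm. Ohler 1, the site read by M1BP, was in 7 summit windows and in 0 upstream windows (adjusted exact p = 0.0312). The E-box CAGCTG was in 45 (6.18%) and 23, 1.96-fold more (adjusted exact p = 0.0248), but it did not pass with windows 300 bp downstream (1.15-fold, adjusted exact p = 0.742) or without replicate 3 (1.41-fold, adjusted exact p = 0.368). It was also lost with a window of 250 bp (adjusted exact p = 0.0739), among the stronger 1446 peaks (0.196) and with summit windows of 51 bp (0.128). The TATA box was less frequent, the single element of the 12 in that direction (8.33%), with 113 summit windows (15.5%) and 154 upstream windows (0.734-fold, adjusted exact p = 0.0248). This lower frequency did not pass with a window of 1000 bp around starts (adjusted exact p = 0.468) or among the stronger 1446 peaks (0.595). It was also lost with summit windows of 51 bp (0.107) and without replicate 3 (0.0575). Against windows 300 bp downstream the TATA box was 1.92-fold more frequent (adjusted exact p = 4.84e-05). Mean GC content was 39.5% at summits, 36.9% in the upstream windows and 46.4% in the downstream windows, and its part in these differences was not tested. Ohler 6, the initiator, the TCT motif, GAGA, the Zelda site and the Su(Hw) core did not pass. Ohler 6 passed with windows that reached 100 bp to either side (9-fold, adjusted exact p = 0.0368), and the TCT motif passed as less frequent with a window of 1000 bp around starts (0.726-fold, adjusted exact p = 0.0498). Without replicate 3, the DRE, the CGATA core and Ohler 7 passed, 3 of 12 in all, against 6 as reported.

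The elements gathered at the summit. A window of 51 bp held the DRE in 22 members (3.02%) at 25 bp upstream of the summit and in 2 members at 300 bp upstream. Ohler 7 was held in 24 members (3.30%) at 25 bp downstream of the summit, against 4 at 300 bp upstream. Relative to the gene start, the median DRE lay at -48 bp, the median Ohler 7 at -30 bp and the median TATA box at -144 bp.

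**Figure D4:**
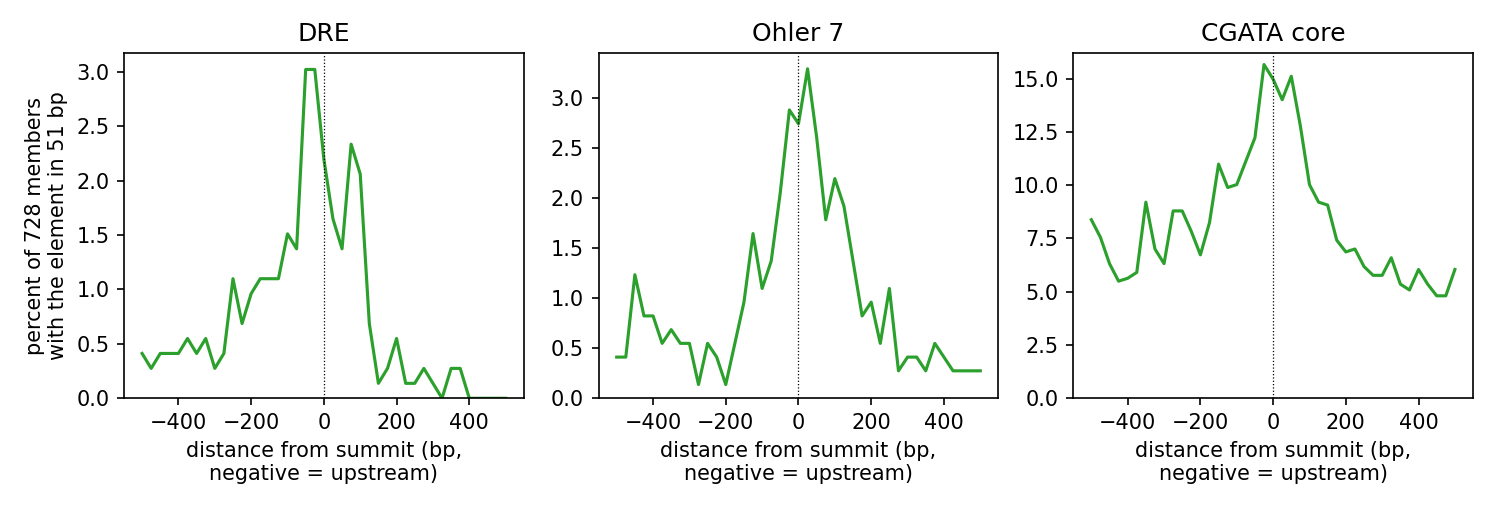
Percent of the 728 members (y axis) that hold the DRE (left), Ohler 7 (middle) or the CGATA core (right) in a 51 bp window at each distance from the summit (x axis, bp, negative values upstream in gene orientation). Each curve is highest within 50 bp of the summit, at 3.02% for the DRE, 3.30% for Ohler 7 and 15.7% for the CGATA core.

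Members were also set against background regions that pass the same 500 bp rule, although these lay elsewhere around the start (median 12 bp, against -89 bp in members). Of the 12, 5 were more frequent in members (41.7%) and 1 less frequent (8.33%; two-sided Fisher's exact, Benjamini-Hochberg over the 12). The DRE was in 4.67% of members, against 2.44% of background regions (adjusted exact p = 0.00421, odds ratio 1.96), and Ohler 7 in 6.18%, against 2.51% (adjusted exact p = 1.83e-05, odds ratio 2.55). The CGATA core was in 26.1% of members, against 18.4% of background regions (adjusted exact p = 1.83e-05, odds ratio 1.56).

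The TATA box (15.5% of members, against 10.8%; odds ratio 1.52) and the TCT motif (11.4%, against 8.59%; odds ratio 1.37) were also more frequent in members. These are matches to a consensus anywhere in the window. Those to the TATA box lay at a median of -144 bp from the gene start (quartiles -211.5 and -77.5 bp), and their use as core promoter elements was not tested. Ohler 1 (odds ratio 0.734, adjusted exact p = 0.784) and the E-box (odds ratio 0.994, adjusted exact p = 1), both called against the upstream windows, did not pass here. The initiator was less frequent, in 7.42% of members and 10.5% of background regions (adjusted exact p = 0.0221, odds ratio 0.680). Mean GC content was 39.5% in members and 44.5% in background regions, and its part in these counts was not tested.

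Between members and divergent starts, 0 of 12 elements (0%) passed the same Fisher's exact test, the smallest adjusted p being 0.0809. At an unadjusted p under 0.05 there were 2. GAGA, the site of the GAGA factor, was in 18 members (2.47%) and 3 peaks at divergent starts (0.539%, odds ratio 4.68, unadjusted exact p = 0.00674). Ohler 7 was in 6.18% of members and 9.34% of peaks at divergent starts (odds ratio 0.640, unadjusted exact p = 0.0425). With windows that reached 100 bp to either side, 5 elements passed.

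The search over all words of 7 bases, each pooled with its reverse complement, gave 6 that were more frequent at member summits than upstream (0.0732% of those tested) and 1 that was less frequent (0.0122%; exact McNemar, Benjamini-Hochberg over all words). ACTATCG led with 54 summit windows (7.42%) and 9 upstream windows (6.00-fold, adjusted exact p = 4.65e-06). The words CTATCGA (52 and 12 windows) and ATCGATA (74 and 26) overlap it or the DRE. AACACTG (35 and 6), GTCACAC (23 and 2) and ACACTGG (25 and 3) formed a second set, with letters shared with Ohler 1 or with one another. GTCACAC was in 3.16% of members and 3.25% of background regions under the same position rule. AACACTG was in 4.81% and 2.04%, and ACACTGG in 3.43% and 1.35%, in the same order and without a test. Over the 4 sets of 182 members from strongest to weakest, AACACTG was in 7, 13, 6 and 9 windows. In the same order GTCACAC was in 3, 3, 4 and 13 windows and ACACTGG in 3, 5, 3 and 14. The latter 2 words thus came mostly from the weakest set, without a test. Of that set, 10.4% of members were strong in both replicates. ATTAAAC was the word that was less frequent, with 12 summit and 42 upstream windows. Against windows 300 bp downstream 60 words passed, 41 of them more frequent at summits, including 4 of the 6.

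The share of windows with ACTATCG differed in size between the classes of peaks. It was in 7.42% of members, against 7.72% of peaks at divergent starts, 2.01% at internal starts, 0.589% away from starts and 2.51% of background regions under the same 500 bp rule. These shares were not tested against each other, since the word was picked by its frequency in members. It was the first or second word by p in each alternative tried for words, and 0 words passed among the stronger 1446 peaks alone, where ACTATCG was in 18 summit and 3 upstream windows (unadjusted exact McNemar p = 0.000729).

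The 54 windows held 58 sites, 23 in the direction of the gene and 35 in the reverse direction. Their median position was -46 bp from the gene start and -2.5 bp from the summit. The base before ACTATCG was A at 32 of the 58 sites, as at RpL37-1 above, and 10 sites overlapped a DRE. The strongest 182 members held the word in 4 windows, against 14, 19 and 17 in the next sets of 182. Ohler 7 was in 3, 15, 11 and 16 windows in the same order and the DRE in 5, 10, 10 and 9. ACTATCG was in 6, 11, 12 and 14 windows over such sets of replicate 3 alone, and in 7, 10, 25 and 10 over those of replicate 2 alone. For Ohler 7 these were 4, 9, 13 and 13 in replicate 3 and 3, 12, 9 and 11 in replicate 2. The DRE was in 7, 10, 4 and 10 windows in replicate 3 and in 8, 7, 15 and 7 in replicate 2, so the strongest set was not the lowest in either replicate. At divergent starts, 4 sets of 139 or 140 peaks from strongest to weakest held Ohler 7 in 6, 11, 20 and 15 windows. The DRE was there in 5, 13, 16 and 7 windows and ACTATCG in 9, 12, 9 and 13. In background regions, the strongest of 4 sets by signal held the most of each: 48 windows with ACTATCG, 47 with Ohler 7 and 42 with the DRE, against 16, 17 and 9 in the weakest set. At the strongest peak with the word, that of yps, which encodes a Y-box RNA-binding protein, the signal was 231.3.

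Member peaks marked 723 protein-coding genes, 707 of the peaks touching 1 gene. Some genes, such as Smg5 and CG10555, had more than 1 member summit, and the tests on peaks and windows counted each summit separately. Eligible genes were those whose outermost start had no protein-coding start of the other strand within 500 bp, and 704 of 10141 (6.94%) had a member summit there. The share was even across the large chromosome arms, at 6.65% on 2L, 6.99% on 2R, 7.45% on 3L, 6.79% on 3R and 6.92% on X. On the small chromosome 4 it was 3 of 66 (4.55%, Wilson 95% interval 1.56 to 12.5).

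Another protein-coding gene overlapped the start or lay within 500 bp upstream at 307 of 704 bound starts (43.6%). At unbound starts this was so for 4019 of 9437 (42.6%, odds ratio 1.04, p = 0.608, Fisher's exact test, two-sided). Counted in the same way within 1000 bp, the odds ratio was 1.22 (exact p = 0.0164). Tandem neighbours stood within 500 bp upstream of 30.0% of bound and 23.2% of unbound starts, and overlapping genes at 13.6% and 19.4%. These kinds differed in opposite directions and were not tested separately. Bound genes had a median length of 4143 bp, against 2074 bp in unbound genes, without a test.

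Cytoplasmic ribosomal protein genes had the highest bound share of the 23 gene lists, with 28 of 52 eligible genes (53.8%, Wilson 95% interval 40.5 to 66.7), against 6.94% of all eligible genes. These genes encode the proteins of the cytosolic ribosome, and in flies their starts often carry a polypyrimidine TCT initiator. Their peaks were of ordinary strength, with a median signal of 103 (lowest 70.2, highest 322.1), and 22 of the 28 were strong in both replicates. They lay close to the start, at a median of -23.5 bp, against -89.5 bp over all eligible bound genes. The CGATA core was in the window of 17 of the 28 (60.7%), the TCT motif in 12 (42.9%) and ACTATCG in 7 (25%). In all 704 bound eligible genes these were 188, 77 and 52. Among the stronger 1446 peaks alone, 30.8% of the ribosomal protein genes were bound, against 3.43% of all eligible genes.

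RpL23A had the strongest of these peaks, at 322.1 (164.9 in replicate 3 and 156.7 in replicate 2), with its summit at -90 bp. RpS10b had 210 (88.5 in replicate 3 and 120.3 in replicate 2), RpL22 had 197.7 (96.3 and 101.4) and RpS28b had 197.2 (99.7 and 94.3), in the same order of replicates. RpL30 had 174.4, with its summit at -26 bp. Several of these genes have similar copies elsewhere in the genome, and the treatment of reads that match several copies is not stated.

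Translation factor genes had 7 of 33 bound (21.2%, interval 10.7 to 37.8), all 7 with summits upstream of the start. Beside eIF6 these included eEF1gamma, a subunit of the elongation factor complex (signal 264.9, with 141.6 in replicate 3 and 123.3 in replicate 2), eIF3c (172.2), eEF5 (150.6) and eIF2A (92.9). Mitochondrial ribosomal protein genes had 1 bound gene of 21 (4.76%, interval 0.846 to 22.7), mRpL41, whose peak was among the strongest of all. The proteasome had 1 of 25 (interval 0.710 to 19.5), namely Rpn12 (signal 87.5), which was not strong in both replicates. Both intervals hold the 6.94% of all eligible genes.

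Lists of insulator, ZAD and Polycomb and trithorax proteins had bound shares above the 6.94% of all eligible genes, on 3 or 4 bound genes each. Of 12 eligible insulator and architectural protein genes 4 were bound (33.3%, interval 13.8 to 60.9), namely BEAF-32 (83.0), Clamp (79.9), pita (75.8) and CTCF (70.5). The insulator share was 16.7% without replicate 2, 16.7% without replicate 3 and 17.6% with a window of 250 bp. None of these 4 was strong in both replicates or among the stronger 1446 peaks, and the summits of the last 3 lay downstream of the start. The list for the ZAD family of CG1792 held 17 genes, of which 12 were eligible and 4 bound. These were Sry-delta (160.2), Phs (134.7), pita, which is in both lists, and hang (71.5). Neither pita nor hang was strong in both replicates, and the share is that of the list rather than of the family. Polycomb and trithorax genes had 3 of 16 (18.8%, and 9.52% with a window of 250 bp): ph-p (144.3), Psc (90.9) and esc (73.3). The interval of this list, 6.59 to 43.0%, holds the 6.94% of all eligible genes. Neither Psc nor esc was strong in both replicates, and the summit at ph-p lay 394 bp downstream of the start.

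The heat shock, cell cycle, vacuolar ATPase, splicing and nonsense-mediated decay lists had 1 to 3 bound genes each. Heat shock and chaperone genes had 3 of 21 (14.3%), with the small heat shock genes Hsp27 (246.7) and Hsp26 (154.7) and with Hsp110 (79.0). Replication and cell cycle genes had 3 of 26 (11.5%), with CycD (125.9), polo (123.1) and CycB (102.4). The vacuolar ATPase had 2 of 21 (9.52%), led by Vha16-1 (96.9), splicing factors had 1 of 8 (B52, 78.8) and nonsense-mediated decay genes had 1 of 4 (Smg5). Neither Hsp110 nor B52 was strong in both replicates.

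Genes of embryonic patterning and of single tissues had at most 3 bound genes a list. Segmentation genes had 3 of 28 (10.7%), with nkd (102.8), the maternal gradient gene bcd (102.3) and the Hedgehog receptor gene ptc (76.3). The peak at ptc was not strong in both replicates. Signalling genes had 2 of 27 (7.41%), led by cact (235.4), whose product holds Dorsal in the cytoplasm. Markers of neurons had 2 of 26 (7.69%), led by elav (265.5), those of muscle 1 of 22 (sls, 160.9) and those of the germline 1 of 11 (bgcn, 195.2).

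Among lists with 0 bound genes, chemoreceptors (0 of 165) and cuticle proteins (0 of 119) were the longest, which allows shares of up to 1.82% and 2.52%, taking 3 counts as the limit of a count of 0. The respiratory chain had 0 of 49, which allows 6.12% on that limit. The Wilson upper bound of the same count is 7.27%, above the 6.94% of all eligible genes, and that of the chemoreceptor and cuticle lists is 2.28% and 3.13%. Haemocyte markers had 0 of 17, aminoacyl-tRNA synthetases 0 of 12 and Hox genes 0 of 8, which allow up to 17.6, 25 and 37.5%.

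**Figure D5:**
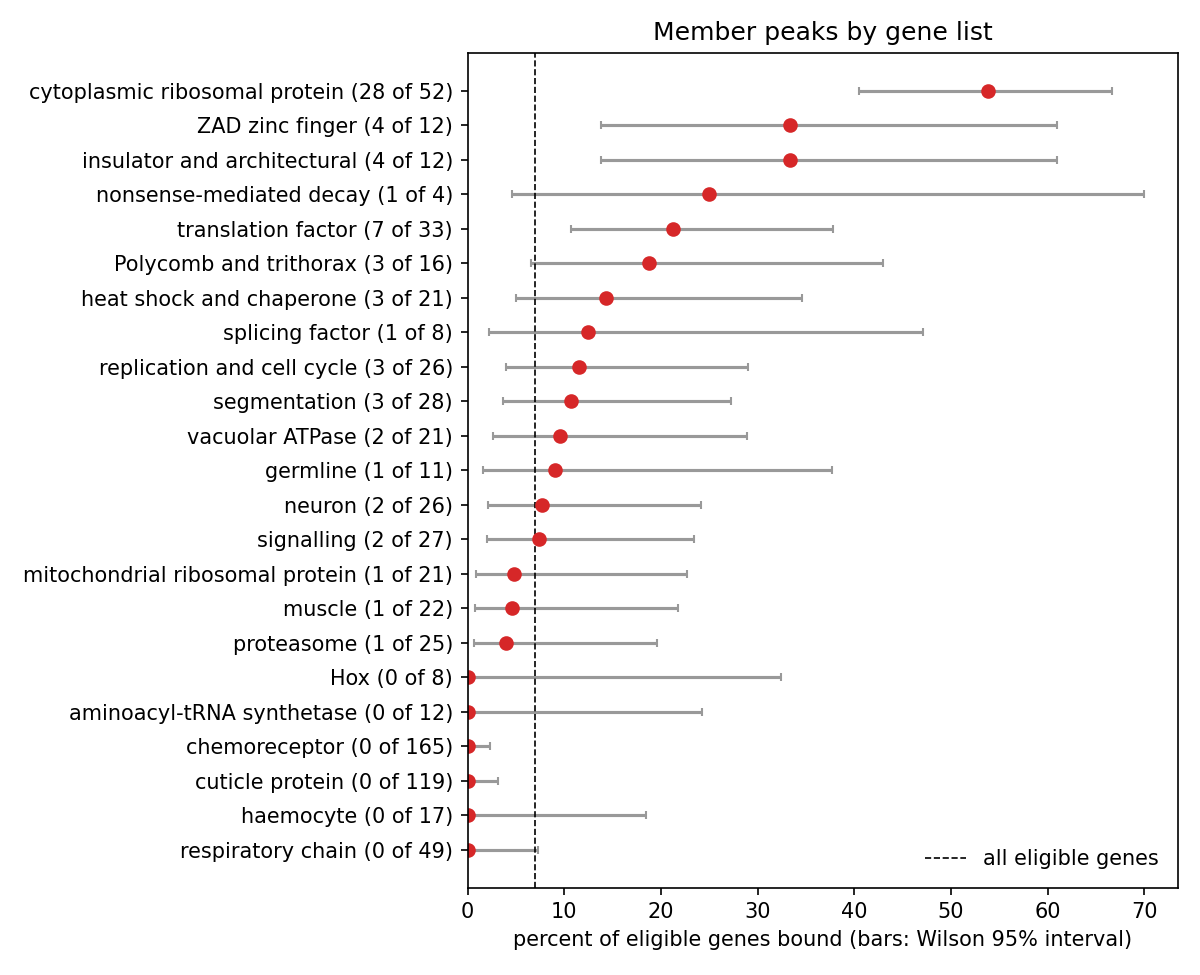
Percent of eligible genes with a member summit at the outermost start (x axis) in each of the 23 gene lists, with bound and eligible counts beside the names and Wilson 95% intervals as bars. The dashed line marks the 6.94% of all eligible genes; the intervals of the cytoplasmic ribosomal protein, ZAD, insulator and translation factor lists lie above it with both replicates (the insulator share is 16.7% without either one), and those of the chemoreceptor and cuticle lists below it.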

How the data were processed

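ChIP-seq peak lists of 2 biological replicates were used as the authors deposited them. Each list gives a signal value and a summit per region, and the scale of the deposited signal is not stated. For the aligner and the peak caller, names and settings were not given in the sources used here. Per the file names, the thresholded list (2892 peaks) was selected by the authors for repeatability between the replicates, and the pooled list (30000 regions) gave the 26452 background regions that overlap no thresholded peak. The dm3 lists were not used. The files hold no read counts, so the depth is unknown and no precision that rests on it is given. With 1 group, no samples were compared: the tests compare classes of peaks or windows.

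Transcript starts came from Ensembl 115 (BDGP6) and sequence from the RefSeq Release 6 genome. Tests were two-sided Fisher's exact and exact McNemar tests with Benjamini-Hochberg adjustment and a threshold of 0.05, run in Python 3.11.15 with numpy 2.4.6, pandas 2.3.3 and scipy 1.17.1. Figures were drawn with matplotlib 3.10.9. The search for 7-base words was tested on simulated data. The members and the gene lists were chosen with earlier results of these data known. Named genes were those at the 15 strongest members that were strong in both replicates. Added to them were the gene at the strongest member peak of each list, up to 4 more for lists with a bound share over 1.5 times that of all eligible genes, and the strongest member with each called element. Alternatives were windows of 250 and 1000 bp, the stronger 1446 peaks, each replicate alone, summit windows of 51 bp and of 100 bp to either side, downstream flanks and neighbours within 1000 bp.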

Additional observations from a re-analysis of the deposited data

How the results depend on the processing

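The side of the start on which members lay did not depend on the settings tried: the odds ratio against background regions ran from 3.11 (window of 250 bp) to 6.45 (stronger 1446 peaks), with 3.52 without replicate 2 and 3.95 without replicate 3. Counts of called 7-base words were less stable. They numbered 7 as reported, 60 with downstream flanks, 4 with a window of 1000 bp and 0 among the stronger 1446 peaks, and between 4 and 8 without a replicate. Elements called under summits fell to 3 of 12 among the stronger 1446 peaks and 3 with windows of 51 bp, against 6 as reported, and numbered between 3 (without replicate 3) and 6 (without replicate 2). Against background regions 3 elements were called among the stronger 1446 peaks and 2 with windows of 51 bp, and 3 and 5 without replicates 3 and 2. Against divergent starts 4 were called with a window of 1000 bp and 5 with windows that reached 100 bp to either side, and 1 and 2 without replicates 2 and 3, against 0 as reported. The stronger 1446 peaks hold fewer members, and the cause was not tested for any of these changes. The bound share of eligible genes was 5.77% with a window of 250 bp, 8.22% with 1000 bp and 3.43% among the stronger 1446 peaks. Odds ratios that missed the threshold as reported and passed it under an alternative were 0.704 (250 bp) and 0.771 (without replicate 3, against 0.882 without replicate 2) for strength against divergent starts, 0.678 (250 bp, adjusted p = 0.0188, Fisher's exact) for presence in both replicates against divergent starts, 0.539 (stronger 1446 peaks), 0.683 and 0.689 (without replicates 2 and 3) for strength against internal starts, and 1.22 for a neighbour within 1000 bp. The TATA box turned from 0.734-fold to 1.92-fold with downstream flanks. For Ohler 1 no ratio can be given against a count of 0. No paired analysis was possible because there is 1 group. Depth is unknown, and no library without the fusion protein was analysed here.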

Other observations

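Some words were more frequent in the strongest 182 members than in the rest; they were picked by that difference after the values were seen, and it was not tested. AAATCTA was in 16 of these 182 windows (8.79%), against 5 of 546 windows of the other members (0.916%). AAATGTT was in 23 (12.6%), against 26 (4.76%), and the other leading words were also made mostly of A and T. Of the same members, 177 ranked high in each replicate, against 170, 119 and 19 in the next sets of 182. The sets were cut by pooled signal, which comes from the same replicates, so this fall is partly built in.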
